A study of Mus musculus with 8 samples.

Results

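The genes described here are 10 genes of cellular iron handling: Slc40a1, Tfrc, Steap3, Fth1, Ftl1, Ncoa4, Ireb2, Aco1, Fbxl5 and Slc25a37. They were found by their symbols among the 22063 genes of the deposited table, each symbol matched 1 row, and all 10 passed the filter on low counts that left 10770 genes for testing. They were chosen from earlier results of the same comparison, tranilast against control, so their differences between the groups are given as a description. No p-value is given for them, and where the fit over all genes calls some of them, the count stands beside the share of all genes called and supports nothing.

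Messenger RNA was sequenced in 8 libraries labelled as liver of wild-type (WT) Mus musculus. The control group and the tranilast group had 4 libraries each, and tranilast is an anti-allergic drug that the study examined in fatty liver disease. The series design gives a high-fat and high-cholesterol (HFHC) diet to both groups. The study's results name that diet for the mice given tranilast and no diet for the sequenced controls, its methods use the name control group for mice on normal chow, and the sample titles are Control and Control+tranilast, so the diet of these libraries is not settled here. The methods name male C57BL/6J mice that received either the vehicle sodium carboxymethyl cellulose or tranilast by mouth. The labels name neither diet, dose, age nor batch, and do not say whether the libraries of a group came from separate animals, so the p-values below measure the spread between these libraries, which may be technical. Library totals ranged from 14585153 to 15618787 counts in the control group and from 12053036 to 14679386 in the tranilast group.

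The labelled tissue was checked against marker genes. Of 10 hepatocyte markers, Serpina1a, Hnf4a, Cyp3a11 and Tat had 0 counts in every library, Alb had at most 2, and the whole list held at most 0.000191% of the counts of any library. The 10 macrophage markers, led by Lyz2 and Csf1r, held between 0.955% and 1.02% in the control group and between 0.947% and 1.01% in the tranilast group. The list was not uniform, since Mrc1 had at most 3 counts in any library and the others differed between the groups in both directions. Log2 fold changes were -1.42 for Fcgr1, -0.28 for Itgam, -0.156 for Csf1r, -0.13 for Lyz2, -0.068 for Cd14 and -0.04 for Tyrobp. They were 0.205 for Adgre1, 0.201 for Mpeg1 and 0.155 for Cd68. The part of these markers in the results below was not tested. Of 5 Kupffer cell markers, Clec4f, Vsig4 and Timd4 were at 0 in every library, as were the erythroid genes Alas2 and Slc4a1. The data thus go against the tissue label for hepatocytes, and the text below speaks of the libraries labelled as liver. In bulk samples such as these, fewer cells of a type and less RNA per cell cannot be told apart.

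Iron is taken up bound to transferrin through the transferrin receptor, stored inside ferritin shells built of heavy and light subunits, and leaves the cell through ferroportin, the only known cellular iron exporter. Macrophages recycle iron from the heme of old red blood cells, and the liver is both a main iron store and the source of hepcidin, the hormone that removes ferroportin from the cell surface. Many of these messages are tuned by iron-responsive elements (IREs), short hairpins that iron regulatory proteins bind when iron is scarce. Binding to an IRE in the 5′ untranslated region (UTR) blocks translation, whereas binding to IREs in the 3′ UTR of the transferrin receptor message protects it from decay.

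IREs carry this control, so they were looked for in 1 protein-coding transcript of each gene (GENCODE release M21, build GRCm38), and those found in the 10 genes are shown. The search asked, on the transcript strand alone, for a C, any 5 bases, CAGTG, a base other than G, and 5 bases able to pair with the first 5, G with T allowed. Elements with another loop, or with unpaired bases among these 5, would be missed, and the Tfrc numbering covers only those found. In the 30-base windows below, written 5′ to 3′ in DNA letters, the capitals mark the bulged C and the loop.
Slc40a1: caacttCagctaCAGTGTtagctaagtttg
Fth1: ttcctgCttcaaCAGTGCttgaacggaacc
Ftl1: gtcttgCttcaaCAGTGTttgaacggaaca
Tfrc, the first element: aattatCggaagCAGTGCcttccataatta
Tfrc, the second element: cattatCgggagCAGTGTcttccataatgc
Tfrc, the third element: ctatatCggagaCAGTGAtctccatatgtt
Tfrc, the fourth element: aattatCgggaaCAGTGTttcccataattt

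The windows of the Slc40a1, Fth1 and Ftl1 elements lay in the 5′ UTR, in exon 1 of the transcripts, and began 89, 86 and 77 bases from the transcript start. They stood at chr1:45925464-45925493 on the minus strand, chr19:9982732-9982761 on the plus strand and chr7:45459778-45459807 on the minus strand. The Fth1 and Ftl1 windows were identical at 26 of 30 bases. The 4 Tfrc elements found by this search lay in the 3′ UTR, in exon 19 of 19. Their windows stood at chr16:32631219-32631248, chr16:32631598-32631627, chr16:32631663-32631692 and chr16:32631710-32631739 on the plus strand. Any pair of them was identical at between 18 and 25 of 30 bases. In transcripts of Steap3, Ncoa4, Ireb2, Aco1, Fbxl5 and Slc25a37, these letters were not found. Among 21645 genes with a transcript of at least 250 bases, 0.0832% had a match in the first 250 bases. Among 3735 genes with a 3′ UTR of at least 2000 bases, 0.696% had a match in the first 2000 bases, and Tfrc was the only gene with more than 1. The counts were made per gene, so transcripts with and without an element cannot be told apart, and control of translation is outside what they measure.

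Slc40a1 encodes ferroportin, the exporter, and showed the largest difference of the 10 genes. Its counts were 65, 62, 56 and 69 in the control libraries 1 to 4 and 270, 301, 253 and 365 in the tranilast libraries 1 to 4. As CPM, counts scaled to library size with TMM factors, which allow for differences in composition, this was 4.62, 4.31, 3.74 and 4.82 in the control group and 19.2, 21.8, 20.2 and 23.8 in the tranilast group. Every tranilast library lay above every control library, and the groups were far apart. The log2 fold change, tranilast minus control, was 2.28 with a standard error (SE) of 0.11, or 4.86-fold, and 18 of the 10770 genes tested were higher by more. Slc40a1 was nonetheless the least abundant of the 10 genes. By the deposited FPKM, fragments scaled to transcript length and library size, which allow levels to be set side by side between genes, its level was 1.25 ± 0.137 (SD, n = 4) in the control group and 6.56 ± 0.647 in the tranilast group.

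**Figure D1:**
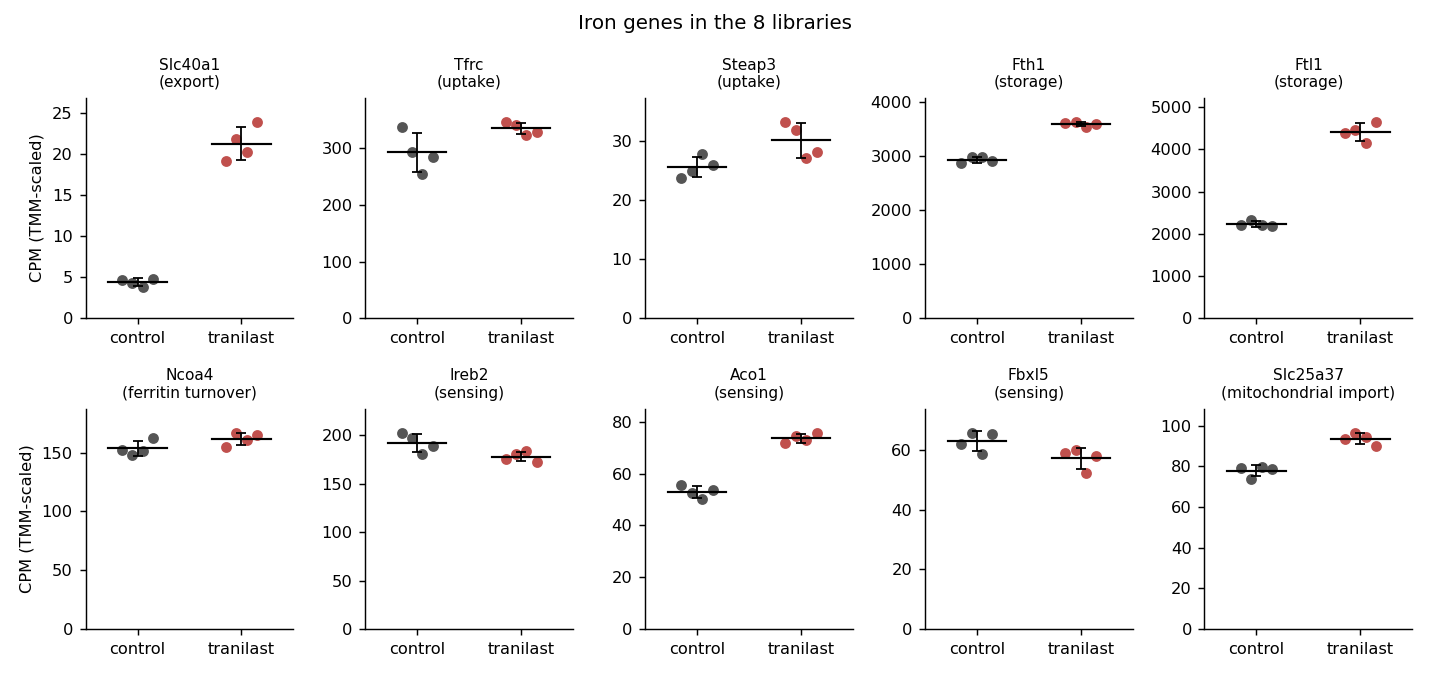
CPM of each of the 10 iron genes (y axes, each from 0) in the control and tranilast libraries (x axes). Points are libraries, horizontal lines are means and bars are the SD of 4 libraries. The tranilast points sit above all control points for Slc40a1, Fth1, Ftl1, Aco1 and Slc25a37, and the groups overlap for the other 5 genes.

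Tfrc encodes transferrin receptor 1, which brings transferrin-bound iron into the cell. Its CPM values were 338, 294, 255 and 285 in the control libraries and 346, 342, 324 and 330 in the tranilast libraries. The control libraries were widely spread, and control library 1 lay within the range of the tranilast group. On the log2 scale the difference was 0.20 (SE 0.057), and 52.5% of the genes tested had a larger absolute value. The coefficient of variation was 11.7% in the control group and 3.04% in the tranilast group, and the difference between these spreads was not tested.

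Steap3 encodes the endosomal reductase that turns ferric iron released from transferrin into ferrous iron. Its CPM values were 23.7, 24.9, 27.7 and 26.0 in the control libraries and 33.1, 31.9, 27.2 and 28.1 in the tranilast libraries. Control library 3 lay above tranilast library 3, so the groups overlapped, and tranilast libraries 1 and 2 were the highest. Steap3 had a log2 fold change of 0.23 (SE 0.077).

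Fth1 and Ftl1 encode the heavy and light subunits of ferritin. The heavy subunit oxidises ferrous iron on entry, and the light subunit favours formation of the mineral core. Fth1 CPM was 2861, 2973, 2970 and 2907 in the control libraries and 3610, 3615, 3533 and 3580 in the tranilast libraries. The values were tight within each group, with coefficients of variation of 1.85% and 1.05%, and the groups did not overlap. The log2 fold change of Fth1 was 0.29 (SE 0.018), or 1.22-fold.

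Ftl1 CPM was 2209 in control library 1, 2337 in control library 2, 2199 in control library 3 and 2195 in control library 4. In the tranilast libraries it was 4382, 4463, 4143 and 4637. The groups were again apart, by more than for Fth1. The log2 fold change of Ftl1 was 0.98 (SE 0.029), or 1.97-fold, and 3.83% of the genes tested had a larger absolute value. Parts of the Ftl1 counts were not whole numbers, as happens when reads are divided between similar copies. The pseudogene Ftl1-ps1, listed as a gene of its own, held between 17.6 and 27.5 counts in the control group and between 28.5 and 59.7 in the tranilast group, at most 0.0968% of those of Ftl1. Other ferritin copies were not analysed here.

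The balance of the ferritin messages therefore differed between the groups, while the protein subunits were not measured. The ratio of Ftl1 to Fth1 FPKM was 0.698, 0.728, 0.670 and 0.682 in the control libraries and 1.11, 1.11, 1.06 and 1.19 in the tranilast libraries. Fth1 was the more abundant message in every control library and Ftl1 in every tranilast library. The mean ratio was 0.694 ± 0.0251 (SD, n = 4) against 1.116 ± 0.0535. Being a ratio within a library, it does not depend on how libraries were scaled. Together, both messages took 0.496% ± 0.0085 (SD, n = 4) of the counts in the control group and 0.832% ± 0.0258 in the tranilast group, and all 10 genes took 0.578% and 0.931%.

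**Figure D2:**
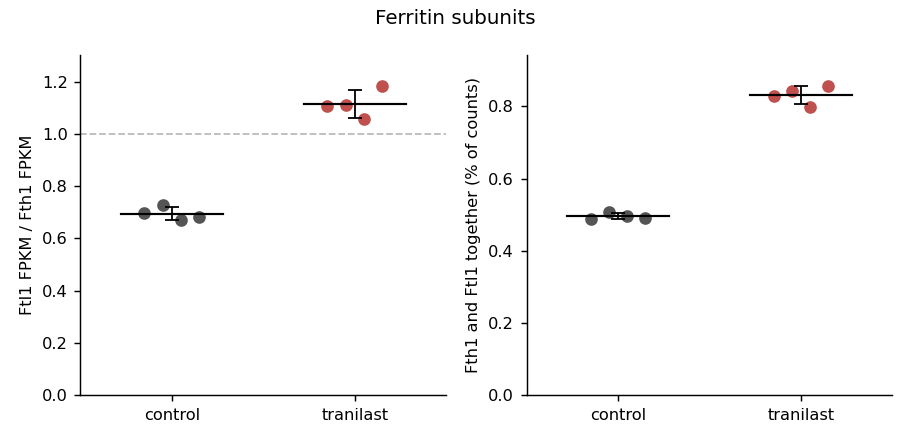
Left, the ratio of Ftl1 to Fth1 FPKM (y axis, with a dashed line at a ratio of 1), and right, the share of all counts taken by both ferritin genes in percent (y axis), in the control and tranilast groups (x axes). Points are libraries, horizontal lines are means and bars are the SD of 4 libraries. The ratio runs from 0.670 to 0.728 in the control group and from 1.06 to 1.19 in the tranilast group, on opposite sides of 1.

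Ncoa4 encodes the receptor that carries ferritin to the lysosome, where its iron is released. Its CPM values were 153, 148, 151 and 163 in the control libraries and 155, 167, 161 and 165 in the tranilast libraries. The groups overlapped, and the log2 fold change was 0.07 (SE 0.037) with TMM factors. This value depends on the scaling, and was 0.14 with upper-quartile factors, 0.19 with library totals alone and 0.18 and 0.19 with log2 FPKM.

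Ireb2 and Aco1 encode iron regulatory proteins 2 and 1, which bind the elements shown above. The Aco1 product is a cytosolic aconitase when it holds an iron-sulfur cluster and an RNA-binding protein when it does not. Aco1 CPM was 55.5, 52.5, 50.2 and 53.6 in the control libraries and 71.7, 74.4, 72.8 and 75.7 in the tranilast libraries. Every tranilast value lay above every control value, with a log2 fold change of 0.48 (SE 0.046), or 1.39-fold. Ireb2 CPM was 202, 197, 181 and 189 in the control libraries and 175, 181, 184 and 173 in the tranilast libraries. The Ireb2 groups overlapped, since control library 3 lay below tranilast libraries 2 and 3. The log2 fold change of Ireb2 was -0.11 (SE 0.038) with TMM factors and 0.01 when libraries were scaled by their totals alone, so its direction depends on the scaling.

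Fbxl5 encodes an iron-sensing subunit of a ubiquitin ligase that marks iron regulatory protein 2 for degradation when iron is ample. Its CPM values were 62.2, 65.8, 58.7 and 65.6 in the control libraries and 58.9, 60.1, 52.2 and 58.0 in the tranilast libraries. Its log2 fold change was -0.14 (SE 0.054), and -0.02 with library totals alone. The ranges overlapped, with control library 3 below tranilast libraries 1 and 2. Of the 3 genes of iron sensing, Aco1 alone had groups that did not overlap.

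Slc25a37 encodes mitoferrin 1, a carrier of iron into mitochondria. Its CPM values were 79.0, 73.7, 79.5 and 78.7 in the control libraries and 93.4, 96.3, 94.3 and 89.8 in the tranilast libraries. The groups did not overlap, and the log2 fold change was 0.27 (SE 0.042). Its paralogue Slc25a28, which encodes mitoferrin 2, is no member of the 10 genes. In that gene CPM was 23.9 ± 2.45 (SD, n = 4) in the control group and 19.7 ± 0.938 in the tranilast group, with a log2 fold change of -0.28 (edgeR adjusted p = 0.00848). In the exact permutation test over libraries the p of Slc25a28 was 0.0571, above the threshold, and the groups overlapped. The call was also lost with library totals alone (adjusted p = 0.105) and with FPKM, and over all alternatives its adjusted p ran from 0.00247 to 0.105. The means of the carriers thus lay on opposite sides of the control group, and this difference between the carriers was not tested.

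Taking the 10 genes as a list, 7 were higher and 2 lower by the edgeR quasi-likelihood fit with a Benjamini-Hochberg adjusted p under 0.05. Of all 10770 genes tested, 57% passed that threshold, 28.2% higher and 28.8% lower. In 5 of the 10 genes the groups did not overlap, against 49.8% of all genes tested. Because the genes were chosen from this comparison, nothing is read from these counts. The median log2 fold change of the list was 0.25, with a range from -0.14 to 2.28, beside a median of 0.01 over all genes tested. At the stricter size limit of the study's methods, a log2 fold change of 1.5 in either direction, Slc40a1 remained as the only gene of the 10, and 120 of all genes tested did.

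The count of calls in the list moved with single libraries, between 7 and 9 of the 10, and this too is a description. Steap3 did not pass without control library 1 or without tranilast library 1. Ireb2 did not pass without control library 1, tranilast library 1 or tranilast library 4. For Fbxl5, the libraries whose omission ended the call were control 2, control 4, tranilast 3 and tranilast 4. Ncoa4 passed when control library 4 or tranilast library 1 was left out. Ncoa4 also passed with upper-quartile factors, library totals and log2 FPKM. With library totals alone, the median of all genes tested moved to 0.125, 8 of the 10 genes were higher and 0 were lower, and the higher calls made up 70.9% of all calls in place of 49.5%.

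**Figure D3:**
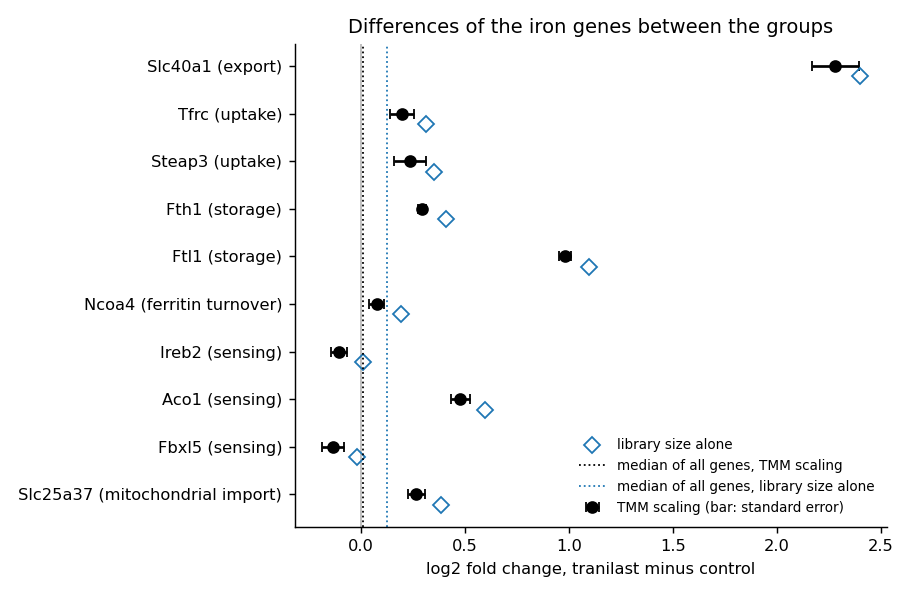
Log2 fold change of the 10 iron genes, tranilast minus control (x axis). Filled points are TMM scaling, with bars for the SE derived from the edgeR fit, and open diamonds are library totals alone. Dotted lines are the medians of all genes tested, 0.008 and 0.125. Slc40a1 at 2.28 and Ftl1 at 0.98 lie farthest to the right, and Ireb2 and Fbxl5 lie left of 0 with TMM scaling and close to 0 with library totals alone.

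In order of their FPKM in the control group, the genes were Fth1, Ftl1, Tfrc, Ncoa4, Ireb2, Fbxl5, Slc25a37, Aco1, Steap3 and Slc40a1. Fth1 ranked in place 10 and Ftl1 in place 17 of all genes by mean FPKM in the control group. Their means were 3192 ± 42.7 (SD, n = 4) and 2216 ± 62.1 FPKM. Tfrc and Ncoa4, at 60.1 ± 6.84 and 51.9 ± 3.13 FPKM, overlapped in the control group, as did Fbxl5 and Slc25a37 at 21.14 ± 1.21 and 21.05 ± 0.73. All other neighbours in this order were separate in every library of the control group. In the tranilast group the order was turned in 2 places. Ftl1 lay above Fth1, at 4737 ± 232 against 4247 ± 54.3 FPKM, and Slc25a37 above Fbxl5, at 27.7 ± 0.686 against 21.1 ± 1.28 FPKM. Tfrc, at 74.3 ± 1.11, no longer overlapped with Ncoa4, at 59.1 ± 2.40. The ratio of Slc40a1 to Tfrc FPKM, exporter to importer, was 0.0208 ± 0.00182 (SD, n = 4) in the control group and 0.0885 ± 0.00992 in the tranilast group, and lay between 0.0191 and 0.0233 and between 0.0784 and 0.101, respectively.

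**Figure D4:**
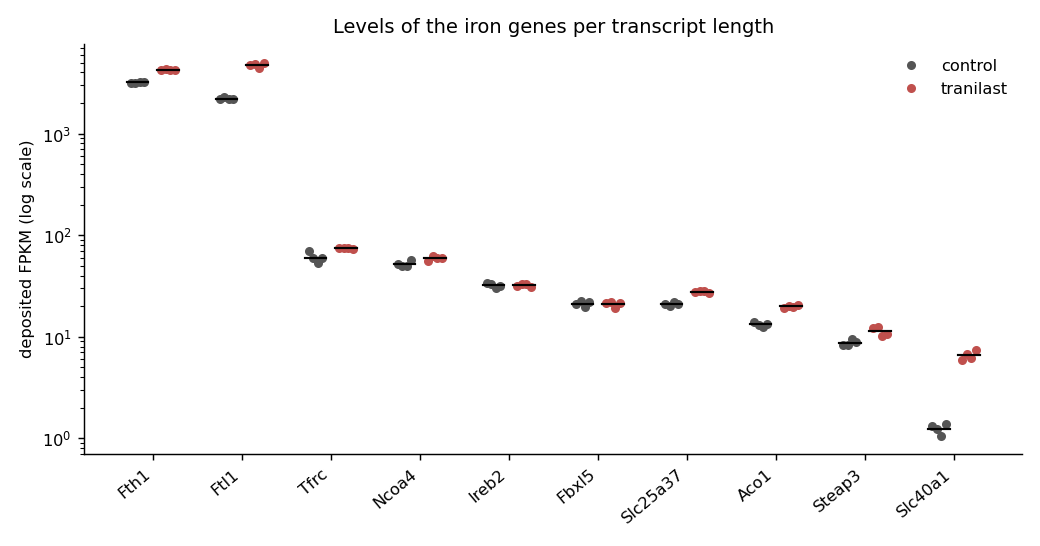
Deposited FPKM (y axis, log scale) of the 10 iron genes (x axis, in order of the control mean) in the control and tranilast libraries. Points are libraries and lines are means of 4. Fth1 and Ftl1 lie above 2000 FPKM in every library, Slc40a1 is lowest with means of 1.25 and 6.56 FPKM, and Ftl1 lies above Fth1 in the tranilast group.

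Genes with a profile over the 8 libraries like that of Slc40a1 were sought among 9765 other genes with a mean of at least 50 counts. The highest Pearson r of log2 CPM was that of Slc19a2 (0.9975), followed by Rimoc1 (0.9969), Tbc1d15 (0.9967), Mdm2 (0.9965) and Ccng1 (0.9964). Their log2 fold changes were 1.15, 0.64, 0.62, 0.92 and 1.30, all under that of Slc40a1. For Tfrc, the closest profiles were those of Vav2 (0.976), Tasor (0.973), Nfs1 (0.959), Atr (0.958) and Fancm (0.949). Nfs1 encodes the cysteine desulfurase that supplies sulfur for iron-sulfur clusters, and was not called (edgeR adjusted p = 0.0533). These correlations describe 8 libraries that fall into 2 groups, and genes that differ clearly between the groups in the same direction have a high r with each other. For Tfrc, whose groups overlapped, r also depends on the spread within the groups.

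The other genes of iron metabolism came from a list of 83, of which 81 were matched to a row of the table and 63 were tested. Among these, 20 were higher and 17 lower by edgeR at an adjusted p under 0.05, where 28.2% and 28.8% of all genes tested were. The groups did not overlap in 32 of the 63, beside 49.8% of all genes tested, and the median log2 fold change was 0.09. With library totals alone, 30 were higher and 7 lower. Each adjusted p below is that of edgeR, and the exact two-sided permutation p over libraries was 0.0286, the smallest that 4 against 4 allow, except where another is given. The list was made with earlier results of these data known, and in each role genes were named because this fit called them. Their p-values are therefore a description and no independent support.

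Of 7 tested genes of iron import and reduction, 3 rose and 2 fell, beside 28.2% and 28.8% of all genes tested. Mcoln1, a lysosomal cation channel that passes ferrous iron, rose from 29.7 ± 1.54 (SD, n = 4) to 48.1 ± 1.56 CPM (log2 fold change 0.70, adjusted p = 5.9e-09). Slc11a2 and Slc11a1, which encode the divalent metal transporters DMT1 and NRAMP1, were higher by 0.17 each on the log2 scale (adjusted p = 0.0136 and 0.0234). The permutation p of Slc11a1 was 0.0571, and its call was lost without control library 1, 3 or 4 or tranilast library 3, while that of Slc11a2 was lost without tranilast library 2 and with log2 FPKM, where its fold was larger. Slc39a14, the zinc and iron importer ZIP14, fell from 140 ± 4.54 to 113 ± 2.65 CPM (log2 fold change -0.31, adjusted p = 1.13e-06). Lrp1, a scavenger receptor that takes up heme bound to hemopexin, fell by 0.10 on the log2 scale (adjusted p = 3.96e-04), and its direction turned to 0.01 with library totals alone. The call of Lrp1 was lost with upper-quartile factors and log2 FPKM as well.

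Partners of export and cytosolic iron chaperones had 4 lower genes and 1 higher gene of 5 tested. The shares of all genes tested were 28.8% lower and 28.2% higher. Pcbp1 and Pcbp2, which encode chaperones that deliver iron to ferritin, fell from 531 ± 12.5 to 428 ± 10.48 CPM and from 542 ± 9.87 to 465 ± 3.18 CPM (adjusted p = 2.26e-08 and 4.52e-07). Ferritin messages themselves were higher in the tranilast group, as given above. Cp, the gene of the ferroxidase ceruloplasmin, fell by 0.47 on the log2 scale (adjusted p = 0.00261). Herc2 rose by 0.38 (adjusted p = 1.02e-07). It encodes a ubiquitin ligase for NCOA4.

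In heme transport and breakdown, 5 of 9 tested genes rose and 2 fell, beside 28.2% and 28.8% of all genes tested. Hmox1, the inducible heme oxygenase that frees iron from heme, had CPM values of 124, 131, 138 and 129 in the control libraries and 216, 215, 209 and 213 in the tranilast libraries (log2 fold change 0.71, adjusted p = 1.08e-11). Blvrb, a biliverdin reductase, rose by 0.67 on the log2 scale (adjusted p = 2.6e-06). Slc48a1, which carries heme out of the phagolysosome, rose by 0.41, Flvcr1, a transporter first described as a heme exporter, by 0.25, and Bach1, a heme-sensing repressor of Hmox1 and ferritin genes, by 0.29 (adjusted p = 2.09e-06, 0.00151 and 2.22e-04). Blvra and Pgrmc1 fell by 0.16 and 0.15 (adjusted p = 0.0196 and 0.0240, permutation p = 0.0286 and 0.0857). Neither of these calls held with upper-quartile factors, library totals alone or log2 FPKM, or without tranilast library 2 (adjusted p over all alternatives from 0.00896 to 0.561 for Blvra and from 0.00502 to 0.640 for Pgrmc1), and that of Pgrmc1 was also lost without control library 1 or 2.

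For heme synthesis, 5 of 9 tested genes rose and 0 fell, beside 28.2% and 28.8% of all genes tested. Uros, uroporphyrinogen III synthase, rose from 10.2 ± 0.548 to 19.2 ± 1.16 CPM (log2 fold change 0.92, adjusted p = 9.44e-08). Urod, the next enzyme, rose by 0.33, and Fech, which inserts iron into the ring, rose by 0.28 (adjusted p = 0.00218 and 1.02e-04). Alas2, the erythroid form of the first enzyme, had 0 counts in every library.

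Iron-sulfur assembly had calls in both directions. Of 17 mitochondrial genes, 2 rose, 5 fell and 10 were not called. Of 10 cytosolic genes, 3 rose, 3 fell and 4 were not called. Of all genes tested, 28.2% rose and 28.8% fell, and nothing is read from these counts. Ciao2a fell by 0.45 on the log2 scale (adjusted p = 5.85e-08), and Nubp1, a scaffold of the early cytosolic pathway, rose by 0.24 (adjusted p = 3.72e-04). Hscb and Abcb8 rose by 0.35 and 0.16, Ciao1 rose by 0.18, and Fdx2 and Nubp2 fell by 0.27 and 0.15 (adjusted p = 0.0245, 0.0182, 0.00991, 0.00589 and 0.0205). The permutation p of Hscb and of Abcb8 was 0.0571. Calls were lost without single libraries for Hscb (control 1, tranilast 2 or 4), Abcb8 (control 3 or tranilast 4) and Nubp2 (control 3, control 4 or tranilast 2), and with library totals alone or log2 FPKM for Fdx2 and Nubp2, the latter also with upper-quartile factors.

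In the hepcidin axis, 6 of 12 genes in the table were tested. Of these 6, 1 rose, 1 fell and 4 were not called, beside 28.2% and 28.8% of all genes tested that rose and fell. Hamp, the gene of hepcidin, had 0 counts in all 8 libraries, as did Hjv, Bmp6 and Tmprss6 of the same axis. For scale, 3 counts in the shallowest library would be 0.249 CPM by library total, without TMM factors. Id1, a target gene of bone morphogenetic protein (BMP) signals, which also drive hepcidin, fell from 18.1 ± 2.91 (SD, n = 4) to 10.1 ± 0.571 CPM (log2 fold change -0.84, adjusted p = 6.66e-06). Smad5, a transducer of these signals, rose by 0.23 on the log2 scale (adjusted p = 0.00241, permutation p = 0.0571).

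**Figure D5:**
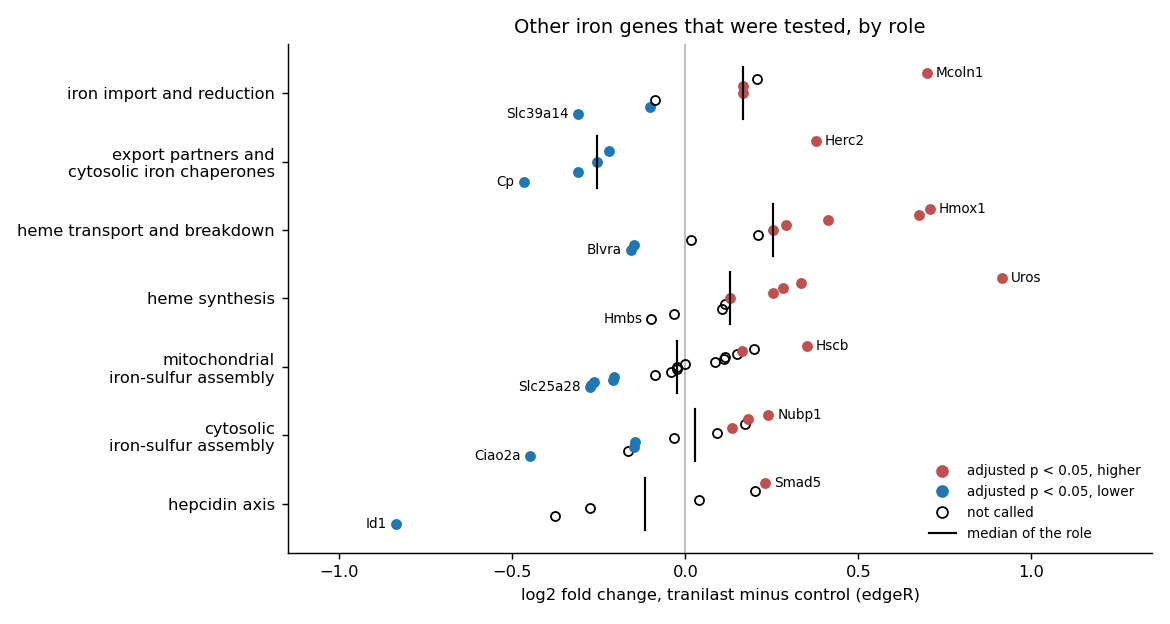
Log2 fold change of the 63 other iron genes tested, tranilast minus control (x axis), by role (y axis). Filled points passed the edgeR threshold (adjusted p under 0.05, red higher and blue lower), open points did not, vertical lines are the medians of the roles, and the highest and lowest gene of each role is named. Uros at 0.92 and Id1 at -0.84 lie at the ends, and no gene reaches the 2.28 of Slc40a1.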

How the data were processed

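Poly-A messenger RNA of 8 libraries was sequenced as paired ends. The labels name a NovaSeq instrument and the study's methods a HiSeq X-ten. For each gene the authors deposited estimated counts, some of them fractional, and FPKM values, which they had scaled to transcript length and depth. The aligner, the counter and the genome build are not given in the sources used here.

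Groups were taken from the labels. Counts were rounded, genes were filtered with filterByExpr by group, libraries were scaled by TMM (factors 0.956 to 0.965 in the control group, 1.037 to 1.045 in the tranilast group), and groups were compared in edgeR 4.0.16 (R 4.3.3) by its quasi-likelihood test, adjusted by Benjamini-Hochberg across 10770 genes. SEs were derived from the log2 fold change and the F statistic of this fit, and the biological coefficient of variation was 5.09%. Permutation tests used log2 CPM with 0.1 added. Simulated data with known changes served only to check the fitting code, and did not test the choice of scaling. Alternatives were other scalings, limma-voom (limma 3.58.1), DESeq2 1.42.0, other filters, log2 FPKM with 1 or 0.1 added, a replicate block and leaving out each library. Replicate libraries differed by more than sampling noise (chi-square per degree of freedom 2.51 to 5.44), so none was counted as a duplicate.

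The members and lists were chosen with earlier results of these data known. Named among the other iron genes were Hamp, Hmox1, Slc11a1, Slc11a2, Slc48a1, Slc25a28, Bach1, Pcbp1, Pcbp2, Fech and Flvcr1, and in each role the 2 highest and 2 lowest called genes with a mean of at least 50 counts. Profiles like those of Slc40a1 and Tfrc were the 5 with the highest r each. Markers of endothelial, stellate, T, B, neutrophil and cholangiocyte cells held at most 0.000191% of counts per list. Ndor1, with several rows, was left out, and Tf was not analysed here. Elements and coordinates came from GENCODE M21 (GRCm38) with Python 3.11.15, to which 21973 gene IDs of the table matched.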

Additional observations from a re-analysis of the deposited data

Results flagged for a closer look

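In 5 of the 78 groups of 4 libraries examined (the 10 iron genes and the other iron genes named, in each group), 1 library stood far from the other 3 relative to the spread of its group. Chance flags about 1 in 20 groups. For Ftl1, control library 2 had 2337 CPM and the others between 2195 and 2209. In the case of Slc25a37, the same library had 73.7 CPM and the others between 78.7 and 79.5. Pcbp2 had 469.7 CPM in tranilast library 1 and between 462.9 and 464 in the others, and Smad5 had 70.7 CPM there and between 75.3 and 75.8 in the others. Herc2 had 198.5 CPM in control library 1 and between 177.6 and 180.8 in the others. None of these libraries closed the gap between the groups of Ftl1, Slc25a37, Pcbp2 or Herc2, whose groups did not overlap. The groups of Smad5 overlapped through the flagged library alone, which lay below control library 4 at 70.9 CPM.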

How the results depend on the processing

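Across RLE factors, DESeq2, limma-voom and both other filters, 7 of the 10 iron genes were higher and 2 lower, as with TMM factors. Upper-quartile factors and scalings without composition factors raised the median log2 fold change of the 10 genes from 0.249 to 0.317 (upper-quartile factors), 0.366 (library totals), 0.360 (log2 FPKM with 1 added) and 0.382 (0.1 added), and that of the other iron genes from 0.086 to 0.154, 0.203, 0.127 and 0.184. Under each of these 4 settings 8 of the 10 genes were higher and 0 lower, Ireb2 and Fbxl5 losing their calls and Ncoa4 gaining one. Ireb2 turned from -0.109 to 0.008 with library totals and to 0.004 and 0.004 with log2 FPKM, and Lrp1 from -0.103 to 0.013 with library totals. In the same settings the median of all genes tested, a value added after seeing the data, ran from 0.076 to 0.125, so these shifts are shared with all genes. The other iron genes split into 29 higher and 11 lower with upper-quartile factors, and 28 and 6 with log2 FPKM, where the calls of Slc39a14 and of Slc11a2 were also lost, the latter with its log2 fold change raised from 0.166 to 0.351 and 0.368 (adjusted p = 0.0753 and 0.0725 in limma). Upper-quartile factors ended the calls of Lrp1, Blvra, Pgrmc1 and Nubp2 (edgeR adjusted p = 0.139, 0.159, 0.204 and 0.190). With at least 10 counts in every library their median was 0.042. Requiring a log2 fold change of 1.5 in either direction left 120 of all genes, 1 of the 10 and 0 of the others by edgeR. Leaving out 1 library at a time gave medians from 0.227 to 0.280 for the 10 genes and from 0.039 to 0.098 for the others, with 7 to 9 and 33 to 37 calls.

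The labels do not say that replicate numbers pair the libraries, and same-numbered libraries correlated at 0.009 to 0.237 in their deviations from the group means, 3 of 8 correlating best with their own number. With a replicate block, 9 of the 10 genes, 38 of the other iron genes and 6009 of all genes were called, against 9, 37 and 6143 without. Among the 10 genes depth limits Slc40a1 most, at 56 to 69 counts in the control libraries. Hamp, which is not one of the 10, was at 0 in every library, and the reason was not tested. Levels of protein, iron and translation were not measured.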
